A study of Mus musculus with 10 samples.

Results

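The 10 transcripts described here are FOXO-linked autophagy genes and muscle atrophy genes: Ulk1, Becn1, Atg14, Map1lc3a, Map1lc3b, Gabarapl1, Sqstm1, Bnip3, Fbxo32 and Trim63. They were taken by symbol from the 16697 gene entries of an RNA-Seq table of mouse liver, and all 10 were listed there. The table holds 10 libraries in 3 groups. Normal liver (NL, n = 4) came from mice labelled WT. The c-MYC tumors (n = 3) followed hydrodynamic tail vein injection of a c-MYC plasmid with the empty pT3-EF1α vector, a method that carries DNA into hepatocytes, where Sleeping Beauty transposase inserts it in the genome. The c-MYC/FOXO1AAA tumors (n = 3; FOXO1AAA tumors below) carried c-MYC together with FOXO1AAA, a MYC-tagged form of FOXO1 that stays active because AKT cannot phosphorylate it. Both transgenes are driven by the EF1α promoter, which is not restricted to one cell type. The strain is given as C57BL/6 in the sample characteristics and as FVB in the extraction protocol. The study names FVB/N for the normal livers in its methods, and for mice injected for both tumor groups in a figure legend. Age and sex are not in the labels, and the design text of the series describes c-MYC/MCL1 tumors under drug treatment, which no sample label mentions.

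Autophagy encloses cytoplasm in a double membrane and delivers it to the lysosome. The ULK1 kinase starts the process, a lipid kinase complex holding Beclin 1 and ATG14 marks the membrane, proteins of the ATG8 family (the LC3 and GABARAP subfamilies) are attached to it, and receptors such as p62 bring in the cargo. Atrogenes are genes switched on in wasting skeletal muscle, of which the ubiquitin ligases atrogin-1 (Fbxo32) and MuRF1 (Trim63) are the best known. FOXO factors activate genes of both kinds in starved muscle, and AKT keeps FOXO factors out of the nucleus. The question here is how these transcripts stood in tumors with an AKT-resistant FOXO1.

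FOXO proteins bind the letters GTAAACA or the shorter core TAAACA, and MYC with its partner MAX binds CACGTG, so the RefSeq promoter windows of the set (GRCm38.p6, 250 bases before to 50 after the annotated start) were searched for these letters on both strands. Windows were given for 7 of the 10 genes, and those of Becn1, Map1lc3a and Fbxo32 were not analysed here. GTAAACA was found in the Trim63 window only, against 3.65% of all 32851 windows, and TAAACA, which lies within GTAAACA, in Trim63 and Gabarapl1, against 13.4%. CACGTG was found in Bnip3 and Atg14, against 7.15%. The window bases before the outermost GENCODE start are shown for the 3 genes among these whose level differed between the tumor groups. They number 250 for Trim63, 218 for Gabarapl1 and 237 for Bnip3, so those of Gabarapl1 and Bnip3 end short of the RefSeq start. They are written 5′ to 3′ on the strand of the gene, with the matched letters in capitals. In Trim63 the capitals read TGTTTAC, since the match is on the opposite strand. The Trim63 bases are at chr4:134314870-134315119 (plus strand), those of Gabarapl1 at chr6:129532942-129533159 (plus strand) and those of Bnip3 at chr7:138909520-138909756 (minus strand).
Trim63: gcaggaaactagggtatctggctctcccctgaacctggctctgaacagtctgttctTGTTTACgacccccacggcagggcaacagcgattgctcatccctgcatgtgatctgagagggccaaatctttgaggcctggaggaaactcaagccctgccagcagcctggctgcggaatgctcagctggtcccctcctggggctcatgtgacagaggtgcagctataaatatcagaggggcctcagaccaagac
Gabarapl1: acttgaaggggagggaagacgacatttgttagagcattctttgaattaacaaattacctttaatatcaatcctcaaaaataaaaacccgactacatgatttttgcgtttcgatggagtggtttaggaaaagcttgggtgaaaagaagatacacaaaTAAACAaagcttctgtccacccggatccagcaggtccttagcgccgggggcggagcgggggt
Bnip3: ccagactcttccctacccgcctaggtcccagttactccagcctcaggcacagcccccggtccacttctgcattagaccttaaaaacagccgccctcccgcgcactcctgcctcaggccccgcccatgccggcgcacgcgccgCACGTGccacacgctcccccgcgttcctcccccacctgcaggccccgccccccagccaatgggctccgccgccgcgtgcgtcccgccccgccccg
A match describes these letters and is not a binding site.

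Expression is given as FPKM (reads scaled by the authors for transcript length and library size), and the whole read counts behind each value were recovered from the steps of the table, 13123719 to 20547746 per library. A transcript was called different when the limma treat test found a change beyond 1.5-fold at an adjusted p below 0.05 (Benjamini-Hochberg over the 14017 genes with at least 1 FPKM in at least 3 libraries), so the p-values below are against a 1.5-fold change and not against none. Foxo1 itself was 7.17, 6.69, 7.87 and 6.82 FPKM in NL, 5.26, 6.46 and 5.17 in c-MYC and 95.6, 83.6 and 70.1 in FOXO1AAA tumors. It was higher in FOXO1AAA tumors than in c-MYC by 3.88 ± 0.14 (log2, SE, adjusted p = 3.40e-08), as the label says. The Myc row, in contrast, was 4.17 to 22.2 FPKM in NL and 0.561 to 1.11 in the 6 tumor libraries, so it gave no check of the c-MYC label; the species of the injected c-MYC is not given in the sources used here, and the groups are named as labelled. Of hepatocyte markers, 8 genes summed to 106681 to 113980 FPKM in NL, 5298 to 6989 in c-MYC and 1078 to 2497 in FOXO1AAA tumors. These are bulk samples, in which fewer cells of a type and less RNA per cell cannot be told apart.

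In c-MYC tumors 6 of the 10 transcripts were lower than in NL and none was higher: Ulk1, Atg14, Map1lc3a, Map1lc3b, Gabarapl1 and Sqstm1. Over all tested genes, 48.1% were called in this comparison, 23.6% lower and 24.5% higher. The libraries of the groups did not overlap for 8 of the 10, all lower, beside 73.9% of all tested genes. When FOXO1AAA tumors were set against c-MYC, 4 were higher (Becn1, Gabarapl1, Fbxo32 and Trim63) and Bnip3 was lower, where 28.7% of all tested genes were called, 15.9% higher and 12.7% lower; 6 of the 10 did not overlap there, beside 63.4%. Against NL, FOXO1AAA tumors had 2 transcripts higher (Fbxo32 and Trim63) and 7 lower, all but Becn1 of the rest, with 57.8% of all tested genes called, 31.2% higher and 26.6% lower; 9 did not overlap, beside 80.1%. The median log2 fold change of the set was -1.11, 0.39 and -1.16 in these comparisons, and that of all tested genes 0.08, 0.03 and 0.21. All 10 passed the filter on low values, but Fbxo32 and Trim63 passed only through the FOXO1AAA libraries, so their calls follow in part from the filter. The comparisons share libraries and are not independent of each other. These directions hold for the scaling of the deposited table. With every library rescaled to the same FPKM total, which put the all-gene median log2 fold change at 1.01 for c-MYC versus NL, 0.20 for c-MYC/FOXO1AAA versus c-MYC and 1.31 for c-MYC/FOXO1AAA versus NL, 1 was higher and 2 lower in the first (Map1lc3a and Gabarapl1 the lower ones and Trim63, at 0 to 2 reads per library, the higher one), and 3 were higher, Becn1 among them, and 1 lower in the last.

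**Figure D1:**
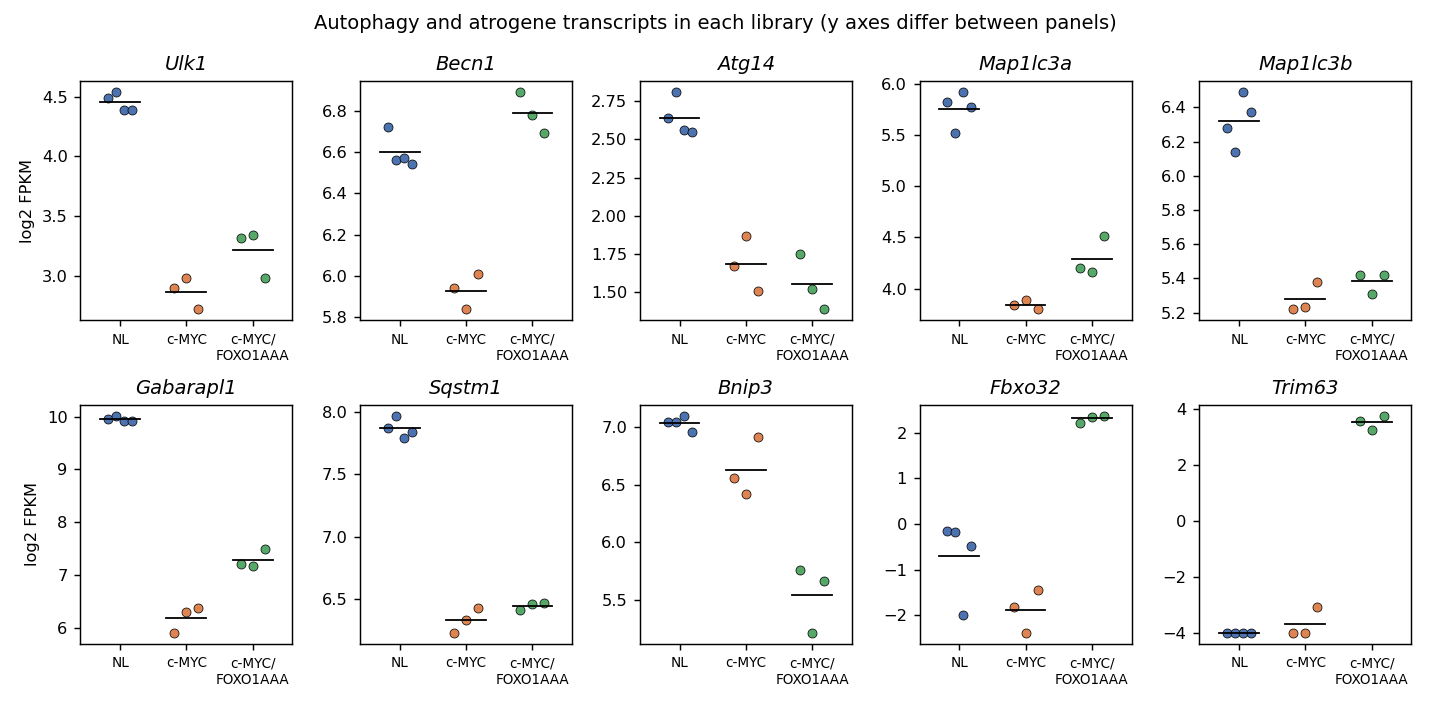
Log2 FPKM (y axes, different in each panel) of the 10 transcripts in each library, as points, with the group mean as a bar, for NL (n = 4), c-MYC (n = 3) and FOXO1AAA tumors (n = 3). Fbxo32 and Trim63 lie above the other 2 groups in all 3 FOXO1AAA libraries, Becn1 overlaps NL there, and Bnip3 is lowest there.

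Ulk1 (chr5:110784488-110810097, GRCm38), the kinase that starts autophagosome formation, was 22.5, 23.2, 20.9 and 21 FPKM in NL, 7.49, 7.89 and 6.58 in c-MYC and 10, 10.1 and 7.87 in FOXO1AAA tumors. Every tumor library was below every NL library, while the tumor groups overlapped by 1 library each. Ulk1 was lower in c-MYC than in NL by a log2 fold change of -1.58 ± 0.12 (SE, adjusted p = 1.69e-05) and still lower than NL in FOXO1AAA tumors (-1.24 ± 0.12, adjusted p = 2.83e-04). Both calls were lost under the same FPKM total, at log2 -0.66 in c-MYC (limma treat, adjusted p = 0.398) and -0.14 in FOXO1AAA tumors. Between the tumor groups the difference was 0.34 (95% interval 0.07 to 0.62, adjusted p = 1 against 1.5-fold).

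Becn1 (chr11:101285952-101302286) encodes Beclin 1, the scaffold of the autophagy lipid kinase complexes. It was 105, 94.6, 94.9 and 93.2 FPKM in NL, 61.4, 57.3 and 64.6 in c-MYC and 119, 110 and 104 in FOXO1AAA tumors. The c-MYC libraries were below all others, and the ranges of NL and FOXO1AAA tumors overlapped. In FOXO1AAA tumors it was higher than in c-MYC by 0.86 ± 0.09 (log2, SE, adjusted p = 0.0291), and its mean was 114% of that in NL. The difference between c-MYC and NL, -0.67 (95% interval -0.86 to -0.47), did not pass (adjusted p = 0.325). Becn1 is one of the FOXO1 targets that the study had plotted from these same libraries, so its rise is not independent evidence. The call was lost (adjusted p 0.0585 to 0.119) without c-MYC replicate 1 or 2 or FOXO1AAA replicate 1 or 2, and over 23 alternatives the adjusted p ran from 2.17e-05 to 1 with 14 calls.

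Atg14 (chr14:47540893-47570649), the subunit that directs the complex to autophagy, was the lowest of the autophagy members on the FPKM scale of the longest principal transcript. Its values were 6.25, 7.0, 5.88 and 5.86 FPKM in NL, 3.19, 3.65 and 2.85 in c-MYC and 3.37, 2.88 and 2.62 in FOXO1AAA tumors. The tumor groups overlapped and both were below NL. Atg14 was lower than in NL by -0.96 ± 0.15 in c-MYC (log2, SE, adjusted p = 0.0344) and by -1.08 ± 0.15 in FOXO1AAA tumors (adjusted p = 0.00724), and the tumor groups differed by -0.13 (95% interval -0.48 to 0.23). The first of these calls was lost without NL replicate 1 or 2 or c-MYC replicate 1 or 3 (adjusted p 0.0580 to 0.119). It was also lost with a pseudocount of 1 FPKM (limma treat, adjusted p = 0.135). Both calls against NL were lost under the same FPKM total (log2 -0.03 in c-MYC and 0.01 in FOXO1AAA tumors).

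Of the ATG8 family, Gabarapl1 (chr6:129533160-129542346), a GABARAP relative that works late in autophagosome formation, moved most. It was 986, 1039, 969 and 961 FPKM in NL, 59.8, 78.8 and 82.5 in c-MYC and 147, 143 and 180 in FOXO1AAA tumors. No library of one group overlapped another group. The mean was 13.4-fold lower in c-MYC than in NL (log2 -3.76 ± 0.13, adjusted p = 6.62e-09), and 2.13-fold higher in FOXO1AAA tumors than in c-MYC (log2 1.09 ± 0.14, adjusted p = 0.00806). At 15.8% of the NL mean, the level in FOXO1AAA tumors was still lower than in NL (log2 -2.67 ± 0.13, adjusted p = 7.67e-08).

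Map1lc3a (chr2:155276297-155278073) and Map1lc3b (chr8:121590361-121598760) encode LC3 proteins, the usual markers of autophagosomes. Map1lc3a was 56.4, 46.0, 60.7 and 54.4 FPKM in NL, 14.3, 14.9 and 14 in c-MYC and 18.3, 17.9 and 22.7 in FOXO1AAA tumors. The 3 groups of Map1lc3a did not overlap, a state shared by 63.4% of all tested genes between the tumor groups, and the difference between those groups, 0.44 (log2; 95% interval 0.16 to 0.72), did not pass the test against 1.5-fold (adjusted p = 1). Map1lc3b was 77.6, 70.4, 89.6 and 83.0 FPKM in NL, 37.4, 37.5 and 41.7 in c-MYC and 42.8, 39.6 and 42.7 in FOXO1AAA tumors, with overlapping tumor groups (log2 0.10; 95% interval -0.13 to 0.34). Relative to NL, c-MYC was lower by -1.91 ± 0.12 for Map1lc3a (adjusted p = 2.19e-06) and by -1.04 ± 0.10 for Map1lc3b (adjusted p = 0.00132). The values for FOXO1AAA tumors against NL were -1.47 ± 0.12 (adjusted p = 3.07e-05) and -0.94 ± 0.10 (adjusted p = 0.00497). For Map1lc3b the sign of the latter turned under the same FPKM total (0.16). Both Map1lc3b calls against NL were lost under that scaling and under quantile normalization. The Map1lc3a call in FOXO1AAA tumors against NL was also lost under the same FPKM total (log2 -0.37). That in c-MYC against NL was kept there (log2 -0.99, limma treat, adjusted p = 0.00423).

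**Figure D2:**
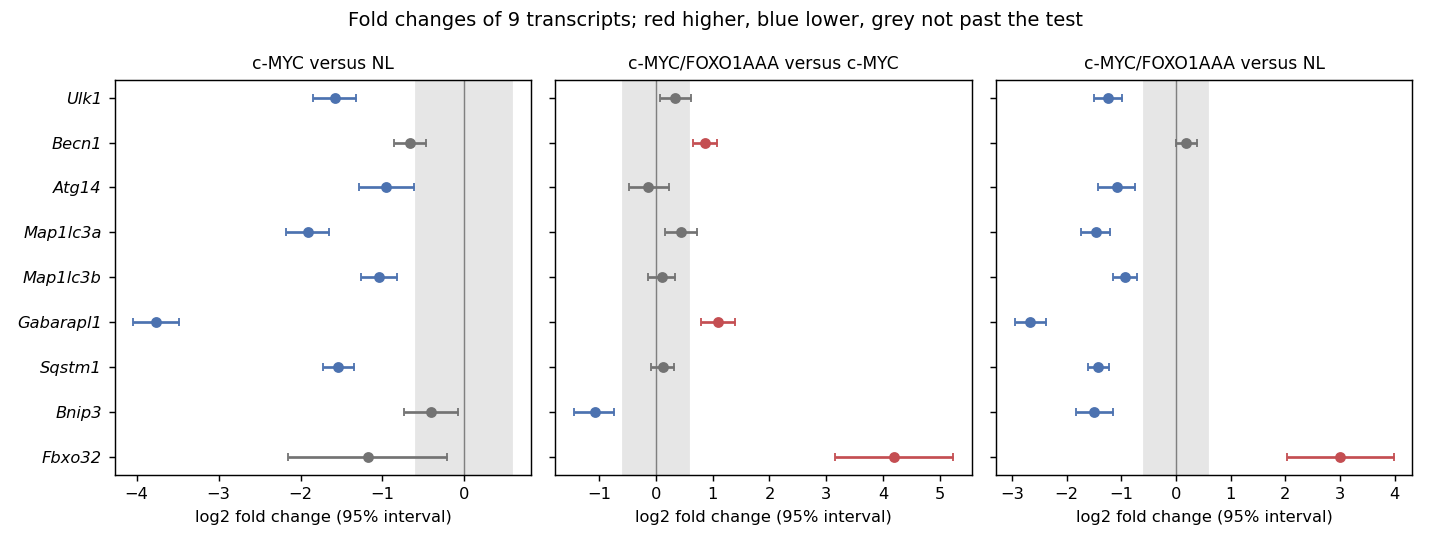
Log2 fold changes (x axes) of 9 transcripts with 95% intervals in each comparison; grey bands mark changes under 1.5-fold. Trim63 is left out because NL held no read of it. Of those shown, 6 are lower in c-MYC than in NL, and 3 are higher and 1 lower in FOXO1AAA tumors than in c-MYC.

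Sqstm1 (chr11:50199366-50210827) encodes p62, the receptor that carries ubiquitin-tagged cargo and is itself broken down by autophagy. It was 234, 251, 222 and 229 FPKM in NL, 74.8, 80.4 and 86.4 in c-MYC and 85.0, 88.0 and 88.7 in FOXO1AAA tumors. Both tumor groups were below NL and overlapped each other. It was lower by -1.54 ± 0.08 in c-MYC (log2, SE, adjusted p = 2.09e-06) and by -1.42 ± 0.08 in FOXO1AAA tumors (adjusted p = 3.47e-06), with a difference of 0.12 between the tumor groups (95% interval -0.08 to 0.32), which lies within 1.5-fold. The call in FOXO1AAA tumors was lost under quantile normalization (log2 -0.59, adjusted p = 0.639), and both calls were lost under the same FPKM total.

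Bnip3 (chr7:138890836-138909519), a mitochondrial receptor of mitophagy that is induced by low oxygen, was the only one of the 10 called lower in FOXO1AAA tumors than in c-MYC. It was 132, 132, 137 and 124 FPKM in NL, 94.1, 85.4 and 120 in c-MYC and 54.3, 37.0 and 50.7 in FOXO1AAA tumors. The 3 groups did not overlap, although c-MYC replicate 3 came close to NL. In FOXO1AAA tumors it was lower than in c-MYC by -1.08 ± 0.16 (log2, SE, adjusted p = 0.0203) and than in NL by -1.49 ± 0.15 (adjusted p = 1.46e-04), whereas c-MYC and NL differed by -0.41 (95% interval -0.74 to -0.08, adjusted p = 1). The first call was lost without c-MYC replicate 3 (adjusted p = 0.0846) or FOXO1AAA replicate 2 (adjusted p = 0.0940), in a fit of only the tumor groups (adjusted p = 0.0503), and under the same FPKM total (adjusted p = 0.10) and quantile normalization (adjusted p = 0.109). The call of Bnip3 against NL was also lost under the same FPKM total (adjusted p = 0.986) and quantile normalization (adjusted p = 0.0693). Its paralog Bnip3l, another mitophagy receptor, named after its values were seen, differed in the opposite direction between the tumor groups, at 28.2 to 31.2 FPKM in NL, 11.9 to 14.4 in c-MYC and 26.2 to 32.4 in FOXO1AAA tumors. Bnip3l was higher in FOXO1AAA tumors than in c-MYC by 1.14 ± 0.11 (log2, SE, adjusted p = 0.00142). On the deposited scale both genes had lower values in c-MYC than in NL, of which only that of Bnip3l passed. Under the same FPKM total these differences were log2 0.52 for Bnip3 and -0.28 for Bnip3l, and neither passed.

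Fbxo32 (chr15:58175879-58214932) encodes atrogin-1, the substrate-binding F-box subunit of an SCF ubiquitin ligase. It was 0.899, 0.884, 0.252 and 0.720 FPKM in NL, 0.283, 0.192 and 0.368 in c-MYC and 4.59, 5.11 and 5.17 in FOXO1AAA tumors. These values rest on 16 to 68 reads per library in NL, 23 to 45 in c-MYC and 705 to 1061 in FOXO1AAA tumors. All 3 FOXO1AAA libraries were above all others, and NL and c-MYC overlapped through NL replicate 3. The log2 fold change was 4.19 ± 0.47 against c-MYC (adjusted p = 7.03e-05) and 3.01 ± 0.44 against NL (adjusted p = 2.96e-04). The lower value in c-MYC than in NL, -1.18 (95% interval -2.15 to -0.21), did not pass (adjusted p = 0.185), and without NL replicate 3 it did (adjusted p = 0.00743).

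Trim63 (chr4:134315120-134329629) encodes MuRF1, a RING-finger ligase of the muscle sarcomere. No read was counted in any NL library or in c-MYC replicates 1 and 2, and 2 reads in c-MYC replicate 3. The FOXO1AAA libraries held 550, 525 and 500 reads, or 11.9, 9.38 and 13.6 FPKM. With the low groups set at 3 reads per library, Trim63 was at least 135-fold higher in FOXO1AAA tumors than in c-MYC and at least 70.8-fold higher than in NL (limma treat, adjusted p = 8.83e-08 and 8.48e-09). These floors cover counting error only, and between NL and c-MYC no difference was detectable at this depth. Trim63 and Fbxo32 were called in both comparisons in all 19 alternatives in which they were tested. Except with no filter, they entered only through the FOXO1AAA libraries, where they are high, so these calls are not independent support. They were not tested at a mean of at least 5 FPKM. With any FOXO1AAA library left out, fewer than 3 libraries reached 1 FPKM and they were not tested either. The count of members called in c-MYC/FOXO1AAA versus c-MYC was then 2, 1 and 3 without replicates 1, 2 and 3 (from 5), since Becn1 was also lost without replicate 1 or 2 and Bnip3 without replicate 2.

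Close relatives of Trim63 showed the same reads-or-none pattern. Trim55 (MuRF2) and Trim54 (MuRF3), which also sit on the sarcomere, had 0 reads in all 7 NL and c-MYC libraries. In FOXO1AAA tumors Trim55 reached 37.1, 24.9 and 49.6 FPKM and Trim54 2.09, 1.55 and 1.75 FPKM, which exceeded c-MYC by at least 115-fold and at least 15.2-fold with the latter set at 3 reads per library. Fbxo25, the closest relative of Fbxo32, did not pass in any comparison on the deposited scale, with means of 4.34, 7.67 and 5.31 FPKM in NL, c-MYC and FOXO1AAA tumors. Of the 18 tested ubiquitin ligase genes (15 muscle atrophy ligases and relatives and 3 core SCF subunits), 4 were higher and 1 lower in FOXO1AAA tumors than in c-MYC, the higher ones being Fbxo32, Trim63, Trim54 and Trim55 and the lower one Fbxo21 (log2 -1.21, adjusted p = 2.87e-04). That is 27.8% of the list, beside 28.7% of all tested genes, and all 4 higher genes passed the filter on low values only through the FOXO1AAA libraries, so these calls follow in part from the filter. The SCF subunits Cul1, Skp1a and Rbx1, with which atrogin-1 works, did not pass in any comparison on the deposited scale. In c-MYC, Nedd4 was higher than in NL (means of 161 and 67.0 FPKM) and Wwp1 and Mul1 were lower, 16.7% of the list beside 48.1% of all tested genes. In c-MYC/FOXO1AAA versus NL, 8 were higher and 4 lower, 66.7% beside 57.8%. With the same FPKM total these splits became 11 higher and 0 lower in c-MYC versus NL, where the sign of Mul1 turned (log2 0.12), and 14 higher and 1 lower in c-MYC/FOXO1AAA versus NL. Cul1, Rbx1 and Fbxo25 were then among the higher ones in both comparisons, and Skp1a in the latter only.

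Most tested markers of skeletal muscle and of fibroblasts were also higher in FOXO1AAA tumors than in c-MYC. The 14 listed skeletal muscle genes in the table summed to 3.64 to 5.38 FPKM in NL, 4.95 to 10.5 in c-MYC and 454 to 572 in FOXO1AAA tumors. In NL 11 of the 14 were at 3 reads or fewer in every library, in c-MYC 6 were, and the myogenic factors Myod1, Myog, Myf5 and Myf6 were at 0 reads in both. In FOXO1AAA tumors none of the 14 was that low, and 10 of the 11 tested were higher than in c-MYC, although 9 of the 11 passed the filter only through the FOXO1AAA libraries. The 6 markers of stellate cells and fibroblasts summed to 80.9 to 102 FPKM in NL, 10.1 to 33.1 in c-MYC and 297 to 397 in FOXO1AAA tumors, and 4 of the 6 were higher in FOXO1AAA tumors than in c-MYC. Decorin (Dcn), a matrix proteoglycan, averaged 69.8, 4.59 and 236 FPKM and the collagen gene Col3a1 5.95, 8.10 and 59.2 FPKM in the 3 groups. The stellate cell marker Lrat (3.85, 0.0967 and 0.278 FPKM) and the collagen gene Col1a1 (2.05, 8.26 and 25.1 FPKM) did not pass between the tumor groups. Lrat was lower in FOXO1AAA tumors than in NL (log2 -3.93, limma treat, adjusted p = 9.30e-05). Among the other lists, 1 of 6 endothelial markers, 2 of 4 tested biliary, 1 of 7 macrophage, 1 of 3 tested lymphocyte and the 1 tested cardiac marker were higher in FOXO1AAA tumors than in c-MYC, and 1 biliary and 1 macrophage marker were lower. Of the 8 hepatocyte markers 1 was higher and 5 were lower there, where 15.9% of all tested genes were higher and 12.7% lower. The part of these cell types in the rise of Fbxo32 and Trim63 was not tested. Across the 10 libraries the log2 profile of Trim63 was most like those of Myl1, a fast muscle myosin light chain (Pearson r = 0.999), Rab31, a small GTPase (r = 0.997), and Eef1a2, the elongation factor of muscle and nerve (r = 0.997), out of 8377 other genes averaging 5 FPKM or more. Fbxo32 was closest to Fxyd5 (r = 0.977), Hexa (r = 0.972) and Plk2 (r = 0.971). Such correlations describe libraries that share 3 groups and the same scaling, so most genes that differ between the groups score high. Trim63 held 0 to 2 reads per library in NL and c-MYC. Myl1 (0.109 and 0.126 FPKM) and Eef1a2 (0.0568 and 0.074 FPKM) also lay near the floor there. An r near 1 follows from that pattern and is no separate evidence of a link. By the same measure Gabarapl1 was closest to Tspan12 (r = 0.999), Aadat and Ces1b, which were abundant in NL (110, 73.3 and 189 FPKM) and below 4 FPKM in both tumor groups, Becn1 to App (r = 0.989), Tprgl and Nab2, and Bnip3 to Glrx (r = 0.987), Sh3yl1 and Acot8.

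**Figure D3:**
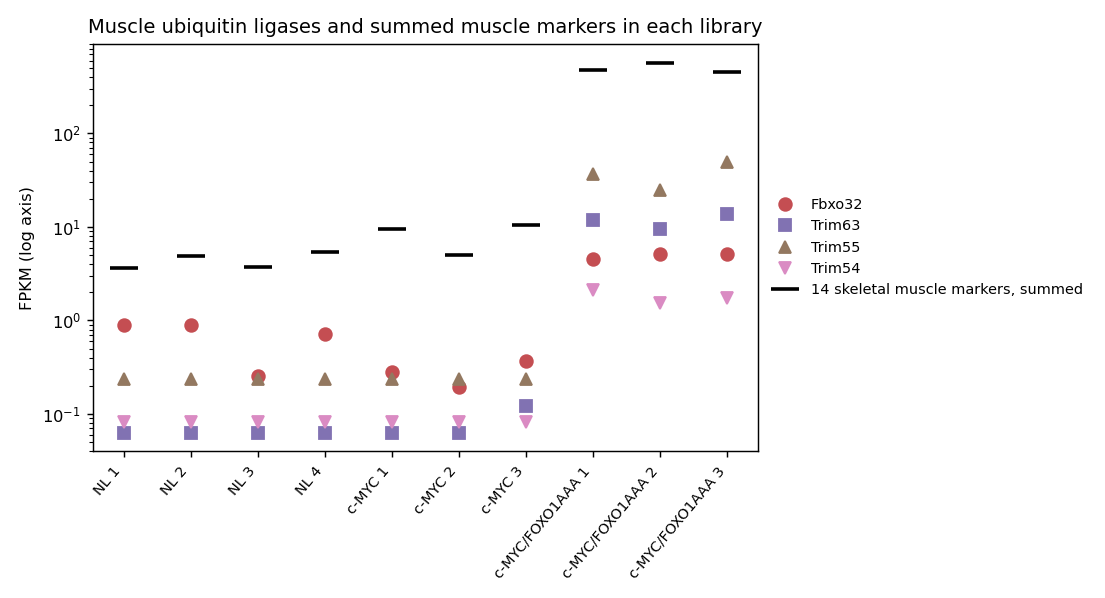
FPKM (y axis, log scale) of Fbxo32, Trim63, Trim55 and Trim54 as points, and of 14 skeletal muscle markers summed as bars, in each library (x axis). Symbols of equal height in NL and c-MYC are libraries with 0 reads, which the table lists at a small value above 0; the marker sum is 454 to 572 in FOXO1AAA tumors and at most 10.5 elsewhere.

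Levels of different genes can be compared only per length, and the lengths behind the FPKM values were not alike. For 8 of the 10 members the length that solves the table equals that of the longest principal transcript in GENCODE M21. For Becn1 it was 463 bp, the length of an annotated noncoding transcript, against 4365 bp, and for Gabarapl1 539 bp, that of a short coding transcript, against 1820 bp, which raises their FPKM 9.43-fold and 3.38-fold in every library and leaves the fold changes as they are. At the principal length, Becn1 was 10.3, 6.48 and 11.8 FPKM and Gabarapl1 293, 21.8 and 46.4 FPKM on average in NL, c-MYC and FOXO1AAA tumors. On that scale the order in NL was Gabarapl1, Sqstm1 (234), Bnip3 (131), Map1lc3b (80.1), Map1lc3a (54.4), Ulk1 (21.9), Becn1, Atg14 (6.25) and Fbxo32 (0.689), and in c-MYC Bnip3 led at a mean of 100 FPKM and Sqstm1 followed at 80.5 FPKM, with overlapping libraries. In FOXO1AAA tumors Sqstm1 was first at 87.2 FPKM, above Bnip3 (47.3), Gabarapl1 and Map1lc3b (41.7), whose ranges overlapped.

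The share of each ATG8 gene in the family's summed FPKM does not depend on how libraries were scaled. The sum itself was 1392 ± 22.8 FPKM (SD, n = 4) in NL, 211 in c-MYC and 307 in FOXO1AAA tumors (n = 3 each). Gabarapl1 made up 71.0% of it in NL, 34.8% in c-MYC and 51.0% in FOXO1AAA tumors, and at the principal length 42.1%, 13.7% and 23.6%. Gabarap, Map1lc3b, Map1lc3a and Gabarapl2 took larger shares in c-MYC than in NL, Gabarap rising from 16.8% to 34.2% and Map1lc3b from 5.76% to 18.4%. The Gabarapl1 groups did not overlap in any comparison; the exact 2-sided permutation test gave p = 0.0571 for c-MYC against NL and for FOXO1AAA tumors against NL (adjusted over 15 tests, 0.0857) and p = 0.10 for FOXO1AAA tumors against c-MYC (adjusted 0.115), the smallest values that these group sizes allow.

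**Figure D4:**
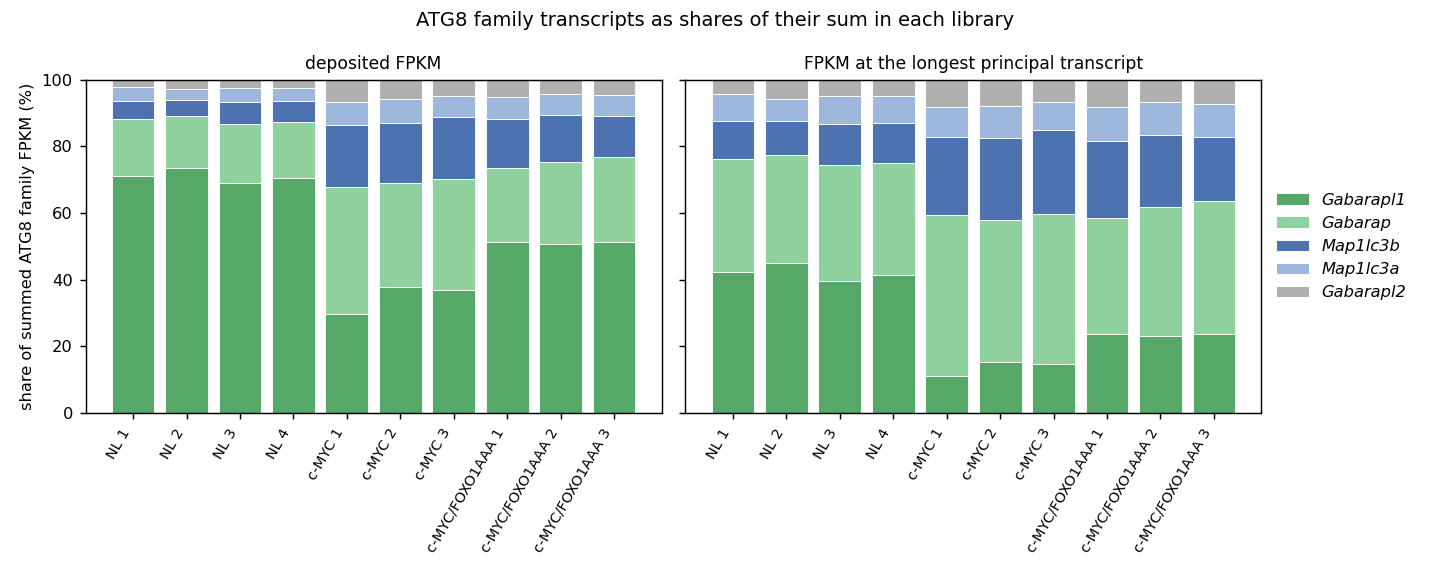
Share (%, y axes) of each ATG8 family transcript in the summed family FPKM of each library (x axes), from the deposited FPKM on the left and at the longest principal transcript on the right. Gabarapl1 averages 71.0%, 34.8% and 51.0% in NL, c-MYC and FOXO1AAA tumors on the left and 42.1%, 13.7% and 23.6% on the right.

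The rest of the pathway was read from a list of 73 autophagy genes, which holds the 8 autophagy members and of which 71 were tested. Without the members, 63 were tested: 2 were higher and 28 lower in c-MYC than in NL, 11 higher and 6 lower in FOXO1AAA tumors than in c-MYC, and 4 higher and 34 lower in FOXO1AAA tumors than in NL. The shares called, 47.6%, 27.0% and 60.3%, were close to the 48.1%, 28.7% and 57.8% of all tested genes, and the split by direction depended on the scaling. With the same FPKM total, 12 of the 63 were higher and 14 lower in c-MYC than in NL, 13 and 3 in FOXO1AAA tumors than in c-MYC, and 17 and 8 in FOXO1AAA tumors than in NL. On the deposited scale their median log2 fold changes were -0.80, -0.03 and -0.96, beside 0.08, 0.03 and 0.21 over all tested genes. Counts by step include the members and are on the deposited scale. In c-MYC versus NL, where 23.6% of all tested genes were lower, 5 of 5 ATG8 genes, 9 of 14 tested cargo receptors and 5 of 11 conjugation enzymes were lower. So were 3 of 5 subunits of the ULK1 complex and 2 of 8 subunits of the lipid kinase complexes (Atg14 and Uvrag). For membrane supply 3 of 10 were lower and 1 higher, for fusion with the lysosome 3 of 9 lower. Among 9 tested regulators 4 were lower and 1 higher. Between the tumor groups none of the 5 ULK1 complex subunits and 1 of 8 lipid kinase subunits (Becn1) passed, while the cargo receptors had 3 higher and 4 lower of 14.

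The other autophagy genes with the greatest changes included some larger than those of any autophagy member. Retreg1, a receptor for autophagy of the endoplasmic reticulum, was 194 to 238 FPKM in NL, 2.14 to 2.89 in c-MYC and 88.9 to 116 in FOXO1AAA tumors (log2 -6.43 ± 0.14 and 5.38 ± 0.15, adjusted p = 2.71e-10 and 7.68e-09). Its values rest on 650 to 836 reads per library in NL, 12 to 17 in c-MYC and 779 to 1027 in FOXO1AAA tumors. Lengths behind the FPKM of genes outside the members and the ATG8 family were not compared with principal transcripts. Wipi1, which binds the lipid made by the Beclin 1 complex, went from 9.99 to 11.5 FPKM in NL to 0.961 to 1.33 in c-MYC and 12.3 to 19.4 in FOXO1AAA tumors (log2 -3.27 ± 0.17 and 3.84 ± 0.19, adjusted p = 1.83e-07 and 2.04e-07). Both had no overlap between c-MYC and the other groups. Trp53inp1, which helps autophagosome formation under stress, was also higher in FOXO1AAA tumors than in c-MYC (log2 2.05, adjusted p = 1.30e-04), whereas Tmem41b (log2 -1.40), the ferritin receptor Ncoa4 (log2 -1.37) and the reticulum receptor Tex264 (log2 -1.23) were lower (adjusted p = 6.43e-04, 5.61e-04 and 3.83e-04). The receptor Optn was lower than in NL in both tumor groups, with means of 40.9, 1.38 and 1.36 FPKM. Higher than in NL in both tumor groups were Atg9b, a lipid scramblase paralog (0.407, 6.28 and 16.5 FPKM), and Prkaa1, the α1 catalytic subunit of AMPK (3.31, 11.4 and 28.2 FPKM). In FOXO1AAA tumors, Tecpr1, which links autophagosomes to lysosomes, was higher (log2 1.52, adjusted p = 2.36e-04) and Trp53inp2 and the AMPK subunit Prkaa2 were lower (log2 -3.73 and -3.27) than in NL.

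**Figure D5:**
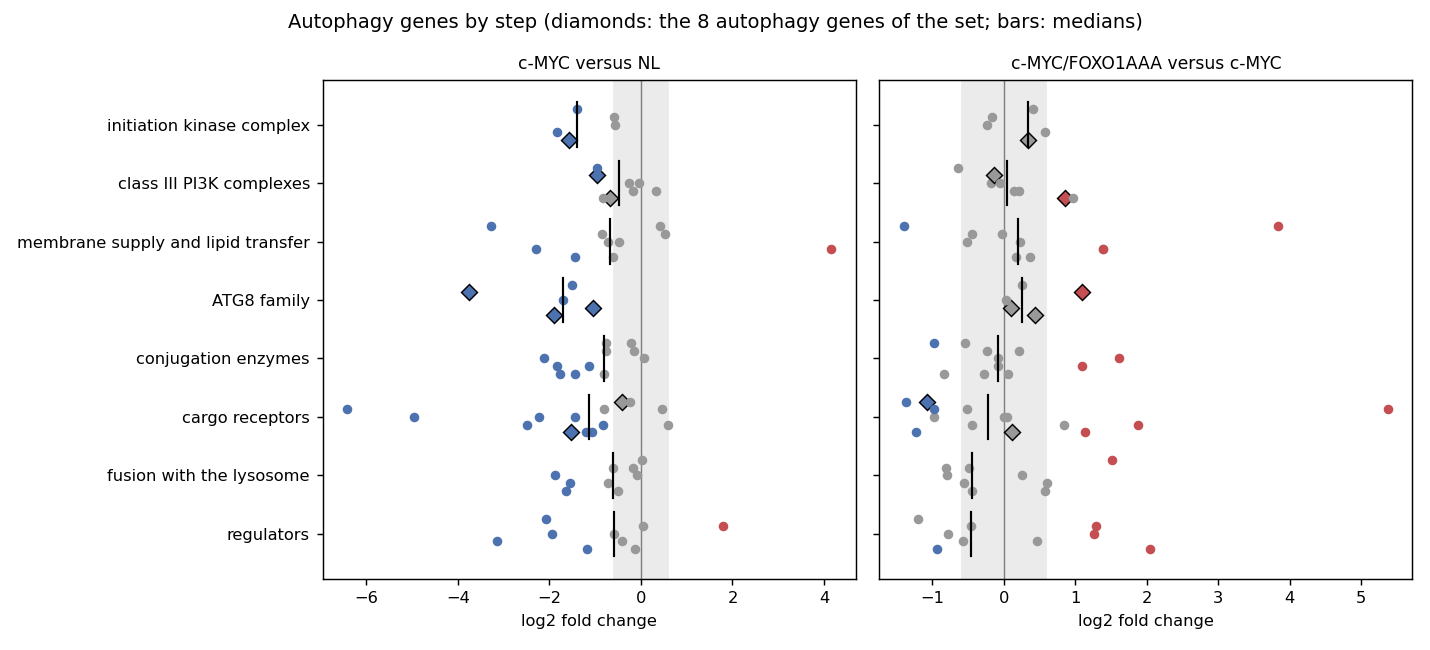
Log2 fold changes (x axes) of the 71 tested autophagy genes by step, for c-MYC versus NL on the left and c-MYC/FOXO1AAA versus c-MYC on the right; diamonds are the 8 autophagy members, red is higher, blue lower, grey not past the test, and vertical bars are medians. The ATG8 family has all 5 genes lower on the left and Gabarapl1 alone higher on the right.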

How the data were processed

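RNA-Seq of 4 normal mouse livers and 6 liver tumors was analysed from 1 deposited table of 17069 entries, 372 of them without a symbol and left out. Per the labels, libraries were made by polyA capture or rRNA removal. The authors counted reads per gene, named genes through Ensembl and Entrez identifiers and used edgeR; the submitters' processing notes name FastQC 0.11.7 and GRCm38, and the aligner and counter are not given in the sources used here. The values are log2 FPKM as deposited by the authors, with a prior count of 2 added before the log. The steps of the table gave whole reads (within 0.02 reads) and gene length with 1 solution for 99.87% of entries; the library scaling they imply was 0.649 to 0.684 in NL, 1.256 to 1.295 in c-MYC and 1.454 to 1.502 in c-MYC/FOXO1AAA, so levels in NL relative to tumors depend on it.

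Genes with at least 1 FPKM in at least 3 libraries were tested on the deposited log2 values with limma 3.58.1 (treat, 1.5-fold, trend and robust estimation; R 4.3.3), all 10 libraries in 1 fit. Fold changes include the prior, which understates those of low genes. ATG8 shares were tested by exact permutation (scipy 1.17.1), with the 2-sided p set at double the smaller tail. The recovery and the test were tested on simulated data. No replicate pair agreed within sampling noise (chi-square per degree of freedom 8.66 to 31.6). The study's methods give the group sizes as mice or livers, and the labels tie no library to an animal. Replicate numbers did not pair the libraries. Alternatives covered the pseudocount, filter, scaling, fold threshold, variance estimation, samples in the fit, replicate block, voom on recovered reads and leaving out each library.

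The 10 genes, the lists of pathway and marker genes and the tests were chosen with earlier results of these data known. Named were the 10 genes, Foxo1 and Myc, per comparison the 3 autophagy genes outside the 10 with the largest called increase and decrease and a mean of at least 5 FPKM in 1 of the groups, genes of the ubiquitin ligase list, and the 3 genes of mean FPKM at least 5 most correlated with each of the 10 called between the tumor groups. Genes with unplaced or clone-type symbols were not considered for the last. Positions are from GENCODE M21 (GRCm38).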

Additional observations from a re-analysis of the deposited data

Results flagged for a closer look

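Among 15 sets of 4 NL values examined (10 transcripts and 5 ATG8 shares), 1 held a library far from the others. Becn1 in NL replicate 1 was 105 FPKM against 93.2 to 94.9 in the other 3, a gap of 0.851 of the group's range and above the 95% critical value of Dixon's test. Chance flags about 1 in 20 such groups. Becn1 in c-MYC versus NL was not called with or without that library.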

How the results depend on the processing

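The counts of called members, of autophagy genes and of ubiquitin ligase genes, the 10 members' fold changes and the ATG8 shares were recomputed under the alternatives. With every library rescaled to the same FPKM total, called members numbered 3 in c-MYC versus NL and 4 in c-MYC/FOXO1AAA versus NL (from 6 and 9), called autophagy genes 27 in c-MYC/FOXO1AAA versus NL (from 45; 18 higher and 9 lower, from 4 and 41), and called ubiquitin ligase genes 11 in c-MYC versus NL, all higher (from 3). This scaling put the higher share of all called genes at 78.8%, 63.6% and 79.5% in the 3 comparisons, against 51%, 55.5% and 54%, and turned the log2 fold change of Becn1 (0.26) and Bnip3 (0.52) in c-MYC versus NL, of Atg14 between the tumor groups (0.04), and of Map1lc3b (0.16) and Atg14 (0.01) in c-MYC/FOXO1AAA versus NL. Quantile normalization turned Bnip3 in c-MYC versus NL (0.04), and voom on the recovered reads turned Trim63 there (-0.15), where its libraries hold 0 to 2 reads. Under quantile normalization the lower calls of Sqstm1 (log2 -0.59), Map1lc3b (-0.45) and Bnip3 (-0.90) in c-MYC/FOXO1AAA versus NL were lost. Becn1 was called higher there (log2 0.91, limma treat, adjusted p = 0.00518), and Map1lc3b was not called in c-MYC versus NL (adjusted p = 0.0945). With no fold threshold, autophagy genes called rose to 59 in c-MYC versus NL and 46 between the tumor groups (from 36 and 20), and ubiquitin ligase genes to 11 and 16 (from 3 and 5). A 2-fold threshold left 2 members between the tumor groups, 6 autophagy genes there and 25 in c-MYC/FOXO1AAA versus NL, and 1 ubiquitin ligase gene in c-MYC versus NL. A mean of at least 5 FPKM left 3 members and 2 ubiquitin ligase genes between the tumor groups, with Fbxo32 and Trim63 not tested, and a fit of only the 2 tumor groups left 3 members. Leaving out 1 library gave 1 to 5 members and 1 to 6 ubiquitin ligase genes called between the tumor groups, lowest without a c-MYC/FOXO1AAA library, where Fbxo32, Trim63, Trim54 and Trim55 were not tested; the cause of the other changes was not tested.

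The numbers of the libraries did not pair them: deviations from the group means of same-numbered libraries correlated at -0.04 to 0.027 over 9 pairs. With the replicate block, 6, 4 and 9 members were called in the 3 comparisons (from 6, 5 and 9), and Becn1 was the call lost (adjusted p = 0.0554).

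The ATG8 shares at the longest principal transcript were chosen after seeing the data. In NL, c-MYC and c-MYC/FOXO1AAA they were 42.1%, 13.7% and 23.6% for Gabarapl1, 33.7%, 45.2% and 37.7% for Gabarap, 11.5%, 24.4% and 21.4% for Map1lc3b, 7.80%, 9.05% and 9.99% for Map1lc3a, and 4.94%, 7.59% and 7.39% for Gabarapl2.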
